A study of Homo sapiens with 16 samples.

Results

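The 8 integrin subunit genes described here are ITGAM, ITGAX, ITGAL, ITGB2, ITGA4, ITGA5, ITGB1 and ITGB7, taken by name from the 18079 gene symbols of the deposited count table, where all 8 had a row. An integrin is an adhesion receptor made of 1 alpha and 1 beta chain, which leave the cell's secretory pathway only as a pair. Leukocytes carry the beta 2 integrins, in which ITGB2 pairs with ITGAL (LFA-1, the receptor for intercellular adhesion molecules), ITGAM (Mac-1, a complement and adhesion receptor) or ITGAX (a complement receptor of myeloid cells). ITGA4 pairs with ITGB1 to bind the vascular adhesion molecule VCAM1 and with ITGB7 to bind the gut vessel adhesion molecule MADCAM1, while ITGA5 pairs with ITGB1 as the main fibronectin receptor.

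Polyadenylated RNA was sequenced from HL60, an established human line of acute promyelocytic leukaemia cells labelled wild type. Cells had received SY-351, an inhibitor of the transcription kinase CDK7, at 50 nM for 5 h, or the solvent DMSO for the same time. Each group had 4 numbered replicates, each listed with 2 technical repeats and held as 1 column of counts. HL60 is 1 cell line, and the labels do not give separate cultures for the replicates, so a p-value here covers only the spread among these samples, which may be technical.

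The gene counts of a library added up to 43.3 to 77.9 M with SY-351 and to 103.7 to 124.2 M in DMSO. The 8 integrin genes had between 539 and 67553 counts in every library, far above the low-count filter, and all 8 were tested. DMSO replicates 1 and 2 stood apart: across genes (not independent replicates of each other), Pearson's r of their log2 CPM with DMSO 3 and 4 was 0.762 to 0.794, against 0.937 to 0.954 between SY-351 and DMSO 3 and 4. The fold of each integrin gene is therefore given against all 4 DMSO libraries and against each DMSO pair. Of 9 promyelocytic or myeloid markers 6 had a row, and their summed level was 33465 to 38313 CPM with SY-351, 48485 to 55378 CPM in DMSO 1 and 2 and 14296 to 18824 CPM in DMSO 3 and 4. Most of this sum was MPO, and single markers went different ways: LYZ measured 4104 to 4632 CPM with SY-351 and 227 to 1814 CPM in DMSO, CEBPA 85.9 to 90.9 CPM with SY-351 and 395 to 4330 CPM in DMSO. CD33 measured 74.9 to 80.3 CPM with SY-351, 3.10 to 5.64 CPM in DMSO 1 and 2 and 62.4 to 86.4 CPM in DMSO 3 and 4. SPI1 measured 284 to 313 CPM with SY-351, 2622 to 2689 CPM in DMSO 1 and 2 and 272 to 345 CPM in DMSO 3 and 4. CTSG measured 586 to 670 CPM with SY-351 and 19.4 to 280 CPM in DMSO. The summed T cell, epithelial, erythroid and fibroblast markers stayed below 5 CPM in every library, with HBA1 and HBB below 0.1 CPM. The 4 B cell markers summed to 17.1 to 19.5 CPM with SY-351 and 6.69 to 15.2 CPM in DMSO, most of it CD79A. The part of these marker levels in the results below was not tested. In bulk RNA, fewer cells with a transcript and less transcript per cell cannot be told apart, and with no added standard the levels are relative to the other genes.

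Of the 8 integrin genes, 4 rose with SY-351 and 1 fell at an edgeR adjusted p below 0.05 over all 15472 genes tested. The genes that rose were ITGAX, ITGAM, ITGB1 and ITGB7, and the one that fell was ITGA5, by 5.41-fold. Over all genes tested 2.91% were called higher and 13.6% lower, 16.5% in either direction. ITGAL was higher in each SY-351 library than in any DMSO library but did not pass the test, while ITGB2 and ITGA4 overlapped between the groups. The median log2 fold of the 8 genes was 1.29, against 0.00 over all genes tested. Levels in the following are TMM-scaled CPM, which are counts scaled to a common library total and by edgeR's normalization factor. That factor was 0.661 in DMSO 1, 0.657 in DMSO 2, 1.61 in DMSO 3, 1.21 in DMSO 4 and 1.02 to 1.07 with SY-351. Log2 folds are SY-351 over DMSO ± the standard error (SE) of the fit.

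**Figure D1:**
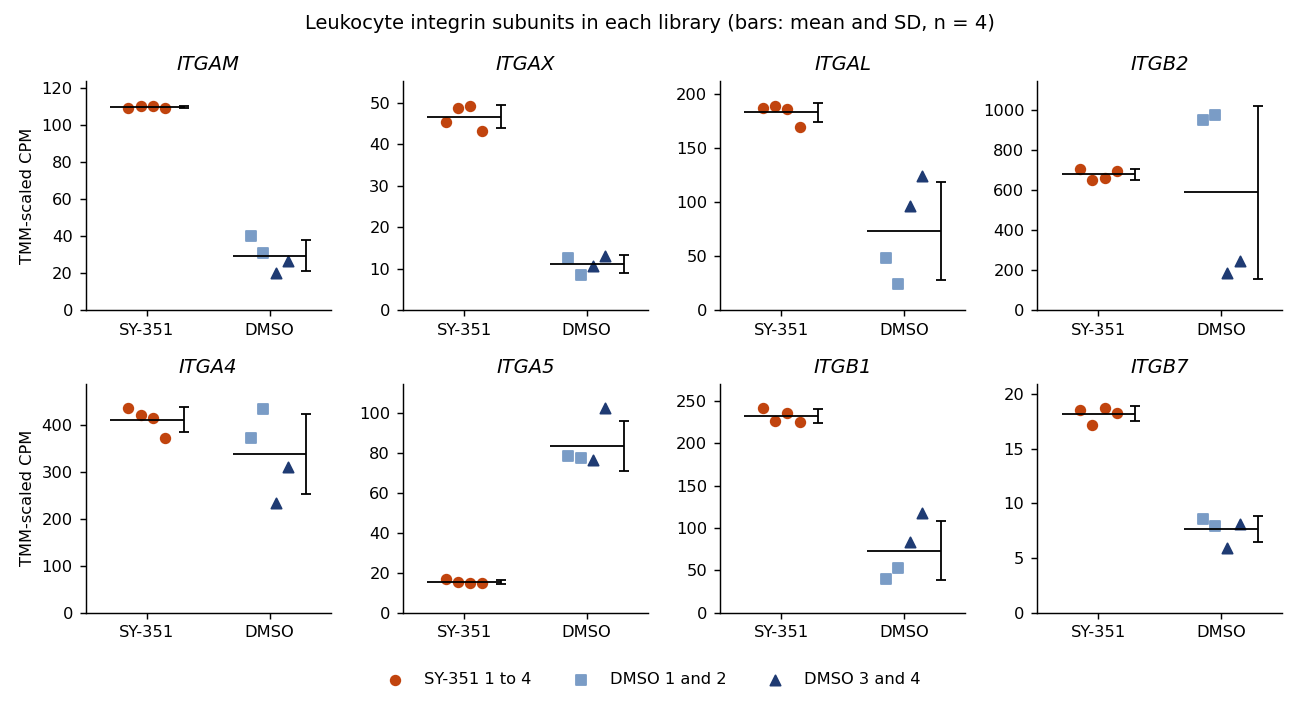
Each panel plots the TMM-scaled CPM of 1 integrin gene on the vertical axis, with SY-351 libraries on the left and DMSO libraries on the right; each point is 1 library, and the lines mark the mean and SD of 4. SY-351 libraries lie close together in every panel, while DMSO 1 and 2 (squares) and DMSO 3 and 4 (triangles) lie far apart for ITGB2, at 953 and 976 against 188 and 245 CPM.

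Among the alpha chains of the beta 2 integrins, ITGAM (NM_001145808, chromosome 16, 31259974 to 31332877, plus strand, GRCh38) measured 109, 110, 110 and 109 CPM in SY-351 replicates 1 to 4, against 39.9, 30.9, 20.1 and 26.7 CPM in DMSO replicates 1 to 4. Every SY-351 library was above every DMSO library, and the SY-351 values lay within 1 CPM of their mean (SD 0.591, n = 4). Its log2 fold was 1.90 ± 0.28, a 3.72-fold higher level (edgeR adjusted p = 0.00621). Against DMSO 3 and 4 alone the log2 fold of ITGAM was 2.25 ± 0.18, and against DMSO 1 and 2 alone it was 1.48 ± 0.11.

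ITGAX (NM_001286375, chromosome 16, 31355175 to 31382999, plus strand) lies 22.297 kb beyond ITGAM on the same strand. It measured 45.5, 48.8, 49.4 and 43.3 CPM with SY-351, against 12.6, 8.40, 10.6 and 13.2 CPM in DMSO. The groups did not overlap, and the DMSO pairs overlapped each other. ITGAX had a log2 fold of 2.06 ± 0.25, which is 4.18-fold (edgeR adjusted p = 0.00334), the largest rise of the 8 genes in the fit to all libraries. With TMM scaling the fold of ITGAX hardly depended on the controls. Its log2 folds were 2.00 ± 0.18 against DMSO 3 and 4 and 2.01 ± 0.17 against DMSO 1 and 2. With total count scaling the log2 fold of ITGAX was 2.06 over all libraries and 1.57 without DMSO 1 and 2.

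ITGAL (NM_002209, chromosome 16, 30472741 to 30523185, plus strand) encodes the alpha chain of LFA-1 and stands on the same chromosome arm, so that ITGAL, ITGAM and ITGAX fall within 910.259 kb. It measured 186, 189, 186 and 169 CPM with SY-351, against 47.9, 24.4, 96.2 and 124 CPM in DMSO. The lowest SY-351 library was above the highest DMSO library, yet DMSO libraries spread over a range wider than the gap between the groups. The log2 fold of ITGAL was 1.32 ± 0.49 and did not pass the test (edgeR adjusted p = 0.101). Within pairs it passed both times, at 0.75 ± 0.16 against DMSO 3 and 4 (edgeR adjusted p = 1.71e-05) and at 2.19 ± 0.28 against DMSO 1 and 2 (edgeR adjusted p = 0.000395).

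ITGB2 (NM_001127491, chromosome 21, 44885953 to 44928815, minus strand) encodes the beta chain that all 3 of these alpha chains need. It measured 708, 652, 661 and 697 CPM with SY-351, against 953, 976, 188 and 245 CPM in DMSO. SY-351 libraries lay between the DMSO pairs, below DMSO 1 and 2 and above DMSO 3 and 4. The log2 fold of ITGB2 over all libraries was 0.20 ± 0.59 (edgeR adjusted p = 0.833), with a SE almost 3 times the fold. It was 1.67 ± 0.18 against DMSO 3 and 4 (edgeR adjusted p = 6.35e-20) and -0.65 ± 0.06 against DMSO 1 and 2 (edgeR adjusted p = 9.27e-06), so that its direction turned with the pair of controls used. With DESeq2's size factors in edgeR the log2 fold of ITGB2 over all libraries was -0.042 and did not pass either (edgeR adjusted p = 0.971).

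ITGA4 (NM_000885, chromosome 2, 181457385 to 181538939, plus strand) encodes the alpha chain shared by the VCAM1 and MADCAM1 receptors. It measured 435, 421, 415 and 372 CPM with SY-351, against 372, 434, 234 and 310 CPM in DMSO. The groups overlapped, since DMSO 1 and 2 fell in the SY-351 range or at its edge and DMSO 3 and 4 below it. The log2 fold of ITGA4 was 0.28 ± 0.31 (edgeR adjusted p = 0.559). It was 0.62 ± 0.17 against DMSO 3 and 4 (edgeR adjusted p = 0.000604) and -0.12 ± 0.09 against DMSO 1 and 2 (edgeR adjusted p = 0.241). The ITGA4 interval overlaps CERKL on the other strand, and whether the library kit kept strand is not given in the labels. CERKL measured 73.1 to 78.1 CPM with SY-351, 0.578 and 0.720 CPM in DMSO 1 and 2 and 45.0 and 60.6 CPM in DMSO 3 and 4. Its part in the counts of ITGA4 was not tested.

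ITGA5 (NM_002205, chromosome 12, 54395260 to 54419266, minus strand), the alpha chain of the fibronectin receptor, was the only 1 of the 8 that fell. It measured 16.8, 15.2, 14.9 and 15.1 CPM with SY-351, against 78.6, 77.8, 76.6 and 103 CPM in DMSO. The groups were far apart, with DMSO 1, 2 and 3 close together and DMSO 4 above them. ITGA5 had a log2 fold of -2.44 ± 0.24 (edgeR adjusted p = 0.00288). With TMM scaling its fall was of the same size against either pair. The log2 folds were -2.51 ± 0.15 against DMSO 3 and 4 and -2.48 ± 0.09 against DMSO 1 and 2. With total count scaling the log2 fold of ITGA5 was -2.44 over all libraries and -2.93 without DMSO 1 and 2.

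ITGB1 (NM_002211, chromosome 10, 32900317 to 32958230, minus strand) is the beta chain of both ITGA4 and ITGA5 and of many other integrins. It measured 242, 226, 236 and 226 CPM with SY-351, against 40.2, 52.5, 83.8 and 118 CPM in DMSO. Every SY-351 library was above every DMSO library, with DMSO 4 the nearest. ITGB1 had a log2 fold of 1.66 ± 0.38, which is 3.16-fold (edgeR adjusted p = 0.0225). Its log2 fold was 1.23 ± 0.17 against DMSO 3 and 4 and 2.18 ± 0.12 against DMSO 1 and 2. The call on ITGB1 was lost on leaving out any one of the SY-351 libraries (edgeR adjusted p = 0.0749 to 0.0781), without DMSO 2 (edgeR adjusted p = 0.0558) and with total count scaling (edgeR adjusted p = 0.124).

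ITGB7 (NM_000889, chromosome 12, 53191322 to 53207251, minus strand), the beta chain of gut-homing leukocytes, was the least abundant of the 3 beta chains. It measured 18.5, 17.2, 18.7 and 18.3 CPM with SY-351, against 8.59, 7.92, 5.94 and 8.11 CPM in DMSO. The groups did not overlap, and with TMM scaling the DMSO pairs were close to each other. Scaled to total count alone, ITGB7 ran from 5.20 to 9.80 CPM in DMSO and from 18.3 to 20.0 CPM with SY-351. ITGB7 had a log2 fold of 1.25 ± 0.26, which is 2.38-fold (edgeR adjusted p = 0.0164), with 1.39 ± 0.18 against DMSO 3 and 4 and 1.00 ± 0.12 against DMSO 1 and 2. Its call was lost on leaving out any one of the SY-351 libraries (edgeR adjusted p = 0.0729 to 0.0750). On the other strand ITGB7 overlaps ZNF740, which averaged 48.7 CPM with SY-351 and 60.9 CPM in DMSO.

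Against DMSO 3 and 4 alone, 7 of the 8 integrin genes were called higher and ITGA5 lower, beside 21.9% and 26.4% of all genes tested in that fit, 48.3% in either direction. Against DMSO 1 and 2 alone, 5 were called higher and ITGB2 and ITGA5 lower, beside 40.8% and 38.4% of all genes tested, 79.2% in either direction. These fits share the SY-351 libraries, and a pair of controls gives a narrow spread of its own. ITGAM, ITGAX, ITGB1 and ITGB7 passed in the same direction in all 3 fits, as did ITGA5. In 5 genes every SY-351 library exceeded every DMSO library and in 1 every SY-351 library lay below, beside 15.5% and 18.2% of all genes tested. Against DMSO 3 and 4 these numbers were 7 and 1, beside 27.2% and 30.3%, and against DMSO 1 and 2 they were 5 and 2, beside 47.4% and 37.6%.

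**Figure D2:**
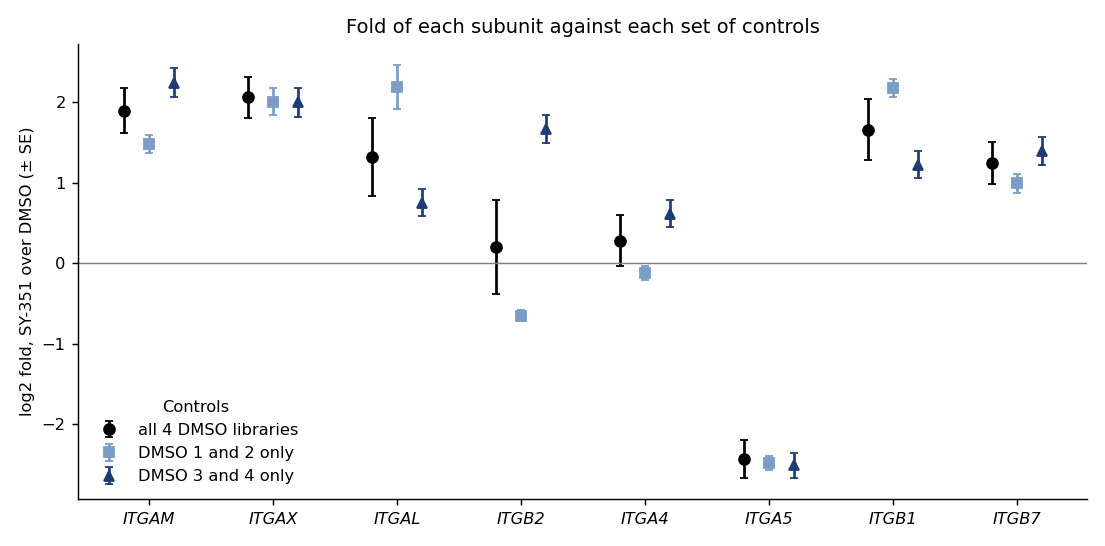
The vertical axis is the log2 fold of SY-351 over DMSO with its SE for each integrin gene, from the edgeR fit to all 4 DMSO libraries (circles), to DMSO 1 and 2 only (squares) and to DMSO 3 and 4 only (triangles). The 3 symbols nearly coincide for ITGAX and ITGA5, while for ITGB2 they lie on both sides of 0, at 1.67 against DMSO 3 and 4 and -0.65 against DMSO 1 and 2.

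Levels of different genes were compared after division by the length of the spliced transcript. The counts were taken over the whole gene interval, introns included, so reads of unspliced RNA can enter these levels. With SY-351 the order of mean CPM per kb was ITGB2 at 233, ITGA4 at 98, ITGB1 at 63.8, ITGAL at 35, ITGAM at 23.1, ITGAX at 11.7, ITGB7 at 6.34 and ITGA5 at 3.49. No neighbours in that order overlapped between libraries. In DMSO 1 and 2 the mean CPM per kb ran from ITGB2 at 331 and ITGA4 at 96.2 through ITGA5 at 17.6 and ITGB1 at 12.7 to ITGAM at 7.47, ITGAL at 6.93, ITGB7 at 2.88 and ITGAX at 2.63. Neighbours from ITGAM to ITGAL and from ITGB7 to ITGAX overlapped there. In DMSO 3 and 4 the means were 74.3 for ITGB2, 64.9 for ITGA4, 27.6 for ITGB1, 21.1 for ITGAL and 20.2 for ITGA5, then 4.94 for ITGAM, 2.98 for ITGAX and 2.45 for ITGB7. Between the libraries of that pair ITGB2 and ITGA4 overlapped, as did ITGB1, ITGAL and ITGA5, and ITGAX and ITGB7. Within DMSO 3 and within DMSO 4, however, the genes stood in the same order as these means. ITGA5 stood last of the 8 with SY-351, but above ITGB1 in DMSO 1 and 2 and above ITGAM in DMSO 3 and 4.

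The make-up of the integrin RNA in a library does not depend on how libraries were scaled to each other. ITGA5 made up 0.711% to 0.764% of the summed CPM per kb of the 8 genes with SY-351, against 3.60% and 3.78% in DMSO 1 and 2 and 9.17% and 9.27% in DMSO 3 and 4. Among the 3 alpha chains that pair with ITGB2, ITGAL held 48.9% to 51.0% with SY-351, against 35.1% and 44.3% in DMSO 1 and 2 and 72.6% and 72.8% in DMSO 3 and 4. ITGAM held 32.3% to 34.7% of these alpha chains with SY-351, against 40.5% and 49.0% in DMSO 1 and 2 and 16.7% and 17.3% in DMSO 3 and 4. The SY-351 shares of ITGAL and ITGAM thus lay between those of the DMSO pairs, whereas the share of ITGAX was above both, at 16.3% to 17.4% with SY-351 against 10.1% to 15.8% in DMSO.

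**Figure D3:**
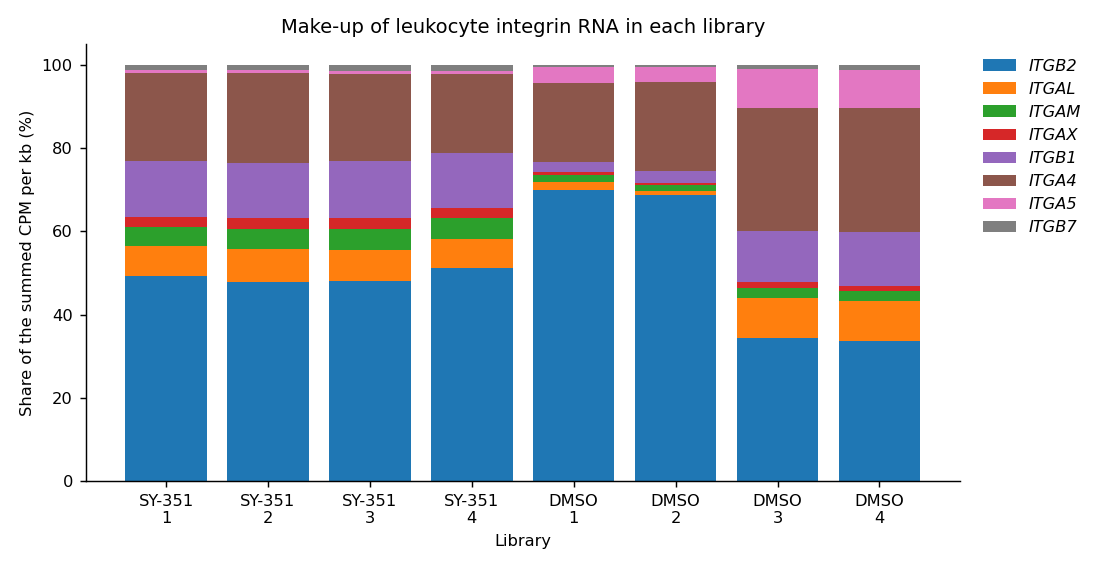
Each bar is 1 library and its segments are the shares, in percent, of the 8 integrin genes in their summed CPM per kb of transcript. The ITGA5 segment is thin with SY-351, at 0.711% to 0.764%, and wider in DMSO, at 3.60% to 9.27%, while ITGB2 takes 68.8% and 69.8% in DMSO 1 and 2 and 33.8% and 34.3% in DMSO 3 and 4.

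For each alpha and beta chain that pair, the log2 ratio of their counts within a library was compared between groups with a two-sided exact permutation test over the 8 libraries. The p-values were adjusted by Benjamini-Hochberg over the 6 ratios, and 0.0286 is the smallest p this design allows. The ITGA5 to ITGB1 ratio averaged -3.91 ± 0.06 with SY-351 and 0.30 ± 0.56 in DMSO (SD, n = 4 each). That difference of -4.21 (exact permutation p = 0.0286, adjusted p = 0.0343) combined a lower alpha and a higher beta chain, and it was -3.74 against DMSO 3 and 4. Since neither chain overlapped between the groups, the smallest p followed from the levels given above and adds no separate support.

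The ITGA4 to ITGB1 ratio averaged 0.82 ± 0.07 with SY-351 and 2.28 ± 0.98 in DMSO, a difference of -1.46 (exact permutation p = 0.0286, adjusted p = 0.0343). ITGA4 over ITGB7 averaged 4.49 ± 0.12 with SY-351 and 5.44 ± 0.24 in DMSO, a difference of -0.95 with the same p-values in the exact permutation test. Relative to ITGA4, then, both of its beta chains were higher with SY-351 in every library. Against DMSO 3 and 4 alone these differences were -0.62 and -0.78.

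The ITGAM to ITGB2 ratio averaged -2.63 ± 0.06 with SY-351 and -3.99 ± 0.92 in DMSO, a difference of 1.36 (exact permutation p = 0.0286, adjusted p = 0.0343). ITGAX over ITGB2 averaged -3.86 ± 0.14 with SY-351 and -5.37 ± 1.39 in DMSO, a difference of 1.5 with the same p-values in the exact permutation test. Both alpha chains were thus higher relative to their beta chain with SY-351 in every library, though against DMSO 3 and 4 the differences were only 0.58 and 0.32. ITGAL over ITGB2 averaged -1.90 ± 0.11 with SY-351 and -2.90 ± 2.26 in DMSO, and the difference of 1.00 did not pass (exact permutation p = 0.429). That ratio was -4.31 and -5.32 in DMSO 1 and 2 and -0.96 and -0.99 in DMSO 3 and 4, so the sign of its difference turned to -0.92 against DMSO 3 and 4. With 4 against 2 libraries the smallest p is 0.133, so none of the ratios could pass against 1 DMSO pair.

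**Figure D4:**
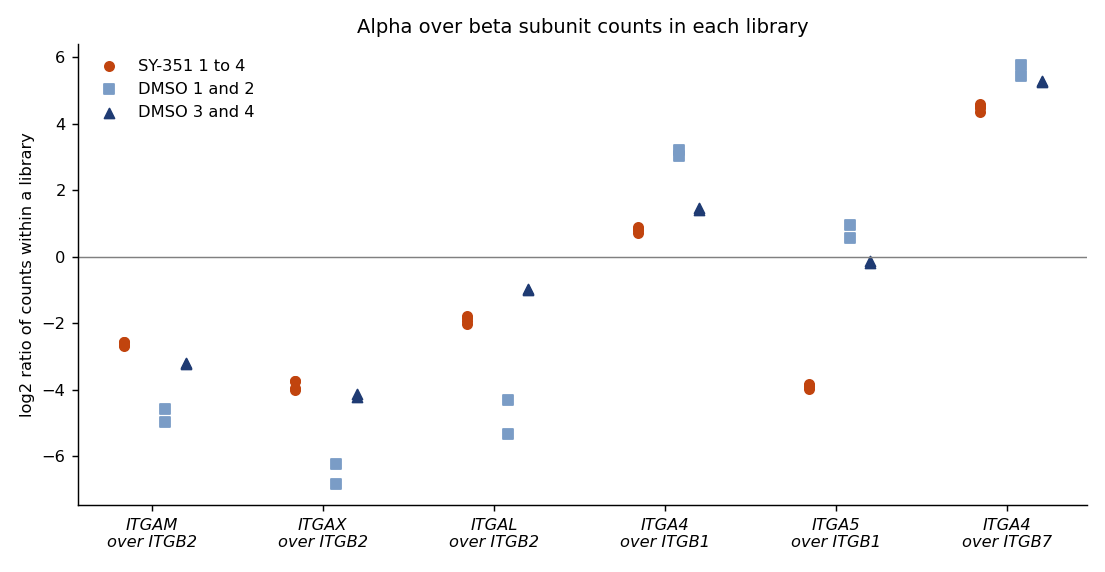
The vertical axis is the log2 ratio of the counts of an alpha chain over its beta chain within 1 library; points are SY-351 libraries, squares DMSO 1 and 2 and triangles DMSO 3 and 4. SY-351 libraries lie outside the DMSO range for every pair but ITGAL over ITGB2, and farthest from it for ITGA5 over ITGB1, at -3.91 on average against 0.30.

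Splicing was described from the authors' deposited table of local splicing variations, which gives, for each junction leaving or entering an exon, its expected share of the reads at that exon in each condition and a probability that the share changed by at least 0.20. Among the 8 integrin genes, ITGA4 and ITGAL have entries in the authors' deposited table. Both ITGA4 variations passed a probability of 0.95, and the ITGAL variation, at 0.857, did not. In the authors' deposited table as a whole, 55.7% of 6716 variations and 64.2% of 3698 genes with a variation passed, so a passing gene is the more common case.

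The ITGA4 variations are views of 1 event at exons 13 to 15 of its 28, which were matched by structure, the introns of 366 and 2685 bases each being the only ones of their length in the transcript. The table uses another genome build, so positions here are those of the transcript ENST00000397033.6 in GENCODE 29 on GRCh38, plus strand. Exon 13 (chr2:181495371-181495416), exon 14 (chr2:181495783-181495937) and exon 15 (chr2:181498623-181498777) are printed 5′ to 3′ because the event joins the first to the last and uses a second acceptor inside the last. The capitals mark the AG directly before that second acceptor, at bases 95 and 96 of exon 15.
ITGA4 exon 13: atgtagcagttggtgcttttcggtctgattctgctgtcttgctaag
ITGA4 exon 14: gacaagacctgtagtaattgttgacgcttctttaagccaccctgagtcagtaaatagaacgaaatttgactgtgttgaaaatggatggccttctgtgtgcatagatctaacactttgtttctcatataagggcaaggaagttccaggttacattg
ITGA4 exon 15: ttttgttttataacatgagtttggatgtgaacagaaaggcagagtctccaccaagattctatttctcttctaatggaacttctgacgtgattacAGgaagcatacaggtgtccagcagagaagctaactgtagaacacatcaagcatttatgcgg

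In the authors' deposited table the joins that skip exon 14 of ITGA4 had a larger expected share with SY-351 than in control. The probability above 0.95 belonged to the lower share of the annotated junctions. The probabilities that a skipping junction by itself changed by at least 0.20 were 3.43e-08 and 0.0728 seen from exon 13 and 0.199 and 0.672 seen from exon 15, all under the threshold in the authors' deposited table. Of the junctions leaving exon 13, the one to exon 14 held 67.0% with SY-351 and 99.6% in control, an expected difference of -0.31 in the authors' deposited table. Exon 13 joined to the start of exon 15 held 14.9% with SY-351 and 0.2% in control in the authors' deposited table. Joined to the second acceptor, 96 bases into exon 15, exon 13 held 17.9% with SY-351 and 0.1% in control in the authors' deposited table. Skipping of exon 14 thus summed to 32.8% with SY-351 and 0.3% in control when seen from exon 13. Neither skipping junction is marked as annotated in the authors' deposited table.

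Seen from exon 15, the authors' deposited table gave the junction from exon 14 as 50.4% with SY-351 and 93.4% in control, an expected difference of -0.44. Both skipping junctions together held 42.3% with SY-351 and 0.5% in control in the authors' deposited table. The second acceptor was used from exon 14 as well, at 6.5% with SY-351 and 5.7% in control in the authors' deposited table. With SY-351 the second acceptor took 55.3% of the joins from exon 13 but 11.4% of those from exon 14, as computed from the authors' deposited table. Ranked by the size of the difference, this variation of ITGA4 stood 1496th of the 6716 in the authors' deposited table, and the view from exon 13 stood 3501st.

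Read in the annotated frame, the sequences above give different products for each join. The annotated transcript of ITGA4 reads 1032 codons to its stop. Leaving out the 155 bases of exon 14 breaks the frame, and the first stop, TAA, ends 13 bases into exon 15, after 465 codons. Joining exon 13 to the second acceptor leaves out 251 bases and gives a TAA that ends 31 bases past the junction, after 471 codons. Joining exon 14 to the second acceptor leaves out 96 bases, keeps the frame and gives 1000 codons. No protein was measured. The level of ITGA4 overlapped between the groups over all 4 DMSO libraries but was higher with SY-351 than in DMSO 3 and 4, as given above. Which control libraries the authors' splicing comparison kept is not stated. Any link between the level of ITGA4 and the event was not tested.

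In ITGAL the variation concerned intron 3, whose 112 bases make it the only intron of that length among the 31 exons of the transcript. The exon before it has 95 bases in that transcript but 119 in the authors' deposited table, so the match rests on the intron alone. The authors' deposited table gave retention of this intron as 19.1% with SY-351 and 45.4% in control, and its removal as 80.9% with SY-351 and 54.6% in control. The expected difference in retention was -0.27 in the authors' deposited table, at a probability of 0.857, under the threshold. In the authors' deposited table as a whole, 59.6% of variations with a retained intron passed.

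**Figure D5:**
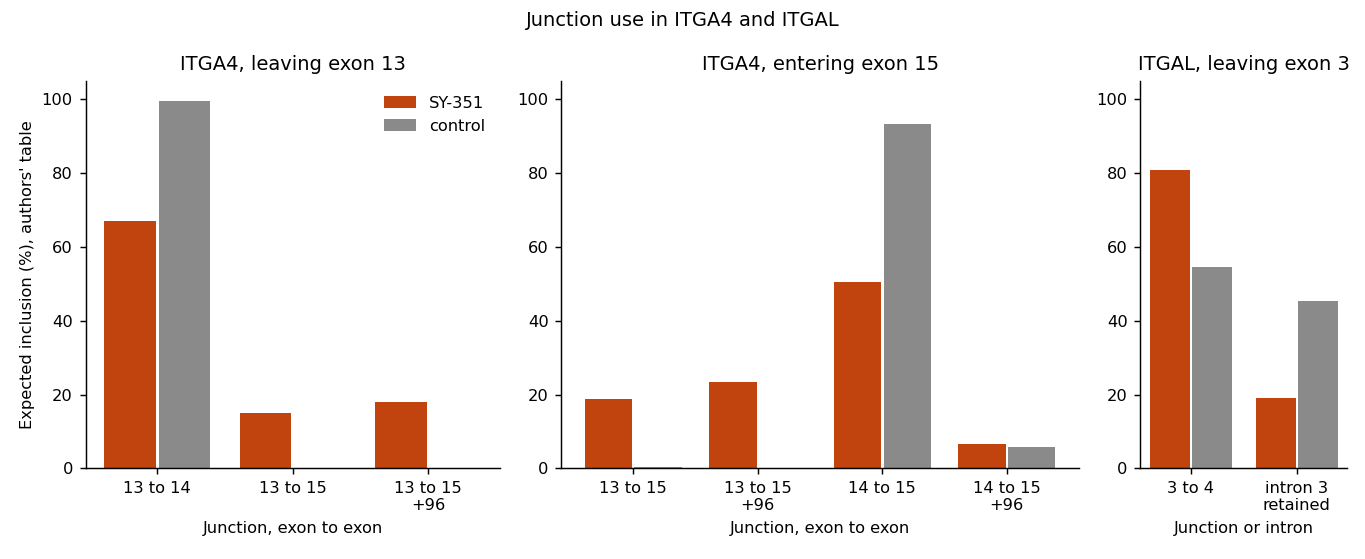
The vertical axis is the expected inclusion, in percent, from the authors' deposited table, with no error bars because it gives no values per sample; bars are SY-351 and control for each junction leaving ITGA4 exon 13, entering ITGA4 exon 15 and leaving ITGAL exon 3. Joins from exon 13 to exon 15 of ITGA4 reach 14.9% and 17.9% of junctions leaving exon 13 with SY-351, against 0.2% and 0.1% in control (+96 marks the second acceptor, 96 bases into exon 15).

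Among 18 other integrin subunits, all tested, 2 rose and 1 fell (all genes: 2.91% and 13.6%), with a median log2 fold of 0.57. ITGA6, an alpha chain of laminin receptors, averaged 61.4 ± 1.1 CPM with SY-351 and 32.2 ± 3.99 CPM in DMSO (log2 fold 0.93 ± 0.22, edgeR adjusted p = 0.0251). ITGA9, which pairs with ITGB1, averaged 18.8 ± 1.20 CPM with SY-351 and 8.0 ± 1.97 CPM in DMSO (log2 fold 1.23 ± 0.29, edgeR adjusted p = 0.0247). ITGAE, the other alpha chain of ITGB7, fell to 14.5 ± 1.03 CPM with SY-351, against 41.8 ± 21.3 CPM in DMSO (log2 fold -1.52 ± 0.40, edgeR adjusted p = 0.0367). These 3 genes were called in the same direction against each DMSO pair. Of the 18, 6 rose and 1 fell against DMSO 3 and 4 (all genes: 21.9% and 26.4%), and 10 rose and 1 fell against DMSO 1 and 2 (all genes: 40.8% and 38.4%).

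Of 20 genes whose proteins promote or restrain integrin activation from inside the cell, none rose and 3 fell (all genes: 2.91% and 13.6%). Their median log2 fold was -0.57. Since the list mixes proteins of opposite effect, neither the count nor the median gives a direction of integrin activation. RASSF5, a RAP1 effector that binds the ITGAL chain, measured 20.0 to 21.0 CPM with SY-351, against 64.4 to 123 CPM in DMSO (log2 fold -2.15 ± 0.27, edgeR adjusted p = 0.00385), with log2 folds of -1.82 against DMSO 3 and 4 and -2.55 against DMSO 1 and 2. SIPA1, which switches RAP1 off, measured 42.7 to 47.6 CPM with SY-351, 894 and 952 CPM in DMSO 1 and 2 and 89.1 and 120 CPM in DMSO 3 and 4. Its log2 fold of -3.51 ± 0.83 (edgeR adjusted p = 0.0264) was -1.19 against DMSO 3 and 4 and -4.50 against DMSO 1 and 2. APBB1IP, which links RAP1 to talin, measured 25.2 to 26.8 CPM with SY-351 and 32.3 to 239 CPM in DMSO, and its log2 fold of -2.31 ± 0.67 (edgeR adjusted p = 0.0490) was -0.49 against DMSO 3 and 4 and -3.23 against DMSO 1 and 2.

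The most abundant of these 20 genes did not pass over all libraries, and both turned with the controls. TLN1, the talin that opens integrins, had a log2 fold of 0.29 (edgeR adjusted p = 0.653), and FLNA, which competes with talin for the beta chain, had -0.75 (edgeR adjusted p = 0.464). TLN1 had a log2 fold of 0.93 against DMSO 3 and 4 (edgeR adjusted p = 3.57e-07) and -0.29 against DMSO 1 and 2 (edgeR adjusted p = 0.00958). FLNA had 0.86 against DMSO 3 and 4 (edgeR adjusted p = 3.18e-06) and -1.64 against DMSO 1 and 2 (edgeR adjusted p = 9.46e-09). Against DMSO 3 and 4 alone 7 of the 20 rose and 3 fell, beside 21.9% and 26.4% of all genes, with a median log2 fold of 0.25. Against DMSO 1 and 2 alone 6 rose and 13 fell, beside 40.8% and 38.4% of all genes, with a median of -1.34, so the sign of this list's median turned with the controls.

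Of 13 ligands and counter-receptors 12 were tested, 1 rose and 2 fell (all genes: 2.91% and 13.6%), with a median log2 fold of 0.07. C3, whose fragment iC3b is bound by ITGAM and ITGAX receptors, averaged 36.4 ± 2.30 CPM with SY-351 and 13.2 ± 3.00 CPM in DMSO (log2 fold 1.46 ± 0.26, edgeR adjusted p = 0.0101). The LFA-1 ligand ICAM2 averaged 2.42 ± 0.26 CPM with SY-351 and 9.75 ± 3.13 CPM in DMSO (log2 fold -2.01 ± 0.35, edgeR adjusted p = 0.00899). ICAM1, another LFA-1 ligand, averaged 0.936 ± 0.22 CPM with SY-351 and 5.38 ± 2.88 CPM in DMSO (log2 fold -2.52 ± 0.47, edgeR adjusted p = 0.0116). All 3 were called in the same direction against each DMSO pair. The more abundant ICAM3 measured 381 to 424 CPM with SY-351, 756 and 832 CPM in DMSO 1 and 2 and 118 and 160 CPM in DMSO 3 and 4, and like ITGB2 lay between the DMSO pairs. CD47, a partner of integrins on the membrane, had a log2 fold of 0.61 (edgeR adjusted p = 0.161), with every SY-351 library above every DMSO library. CD47 passed against each pair, at 0.64 against DMSO 3 and 4 (edgeR adjusted p = 0.000269) and 0.45 against DMSO 1 and 2 (edgeR adjusted p = 0.00477). VCAM1 was left out by the low-count filter.

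Of 10 other leukocyte adhesion receptors 8 were tested, none rose and 2 fell (all genes: 2.91% and 13.6%), with a median log2 fold of 0.01. SELPLG, the ligand of P-selectin, measured 22.0 to 24.7 CPM with SY-351, against 93.8 to 285 CPM in DMSO (log2 fold -2.84 ± 0.39, edgeR adjusted p = 0.00499). SPN, the sialophorin that coats leukocytes, measured 333 to 345 CPM with SY-351, against 670 to 983 CPM in DMSO (log2 fold -1.37 ± 0.31, edgeR adjusted p = 0.0224). Both fell against each pair as well, SELPLG with log2 folds of -2.20 against DMSO 3 and 4 and -3.42 against DMSO 1 and 2, and SPN with -1.22 and -1.64 in the same order. EMB had a log2 fold of 0.21 (edgeR adjusted p = 0.678) and turned with the controls, being higher against DMSO 3 and 4 at 0.74 (edgeR adjusted p = 2.53e-05) and lower against DMSO 1 and 2 at -0.31 (edgeR adjusted p = 0.00415).

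Of 23 signalling and linker genes downstream of integrins, 19 had a row and were tested. None rose and 1 fell (all genes: 2.91% and 13.6%), with a median log2 fold of -0.08. The adaptor CRKL measured 68.6 to 78.0 CPM with SY-351, against 101 to 265 CPM in DMSO (log2 fold -1.33 ± 0.35, edgeR adjusted p = 0.0364), with log2 folds of -0.71 against DMSO 3 and 4 and -1.89 against DMSO 1 and 2. The actin linkers PARVG and ACTN1, the most abundant of the list, had log2 folds of 0.48 and -0.77 (edgeR adjusted p = 0.300 for both). PARVG passed against DMSO 3 and 4 at 0.60 (edgeR adjusted p = 0.00068) and not against DMSO 1 and 2 at 0.24 (edgeR adjusted p = 0.316). ACTN1 was at 0.31 against DMSO 3 and 4 (edgeR adjusted p = 0.101) and fell against DMSO 1 and 2 at -1.52 (edgeR adjusted p = 1.54e-08). Over these 5 lists 3 genes rose and 9 fell of 77 tested, beside 2.91% and 13.6% of all genes. Among their genes, SIPA1, CD44 and PTK2B had a splicing variation past 0.95 in the authors' deposited table, and none of the 18 other integrin subunits had an entry in it.

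For each integrin gene, the gene of at least 10 CPM with the most similar log2 CPM over the 8 libraries was named, by Pearson's r among 8219 genes. These points share their libraries and their split into SY-351, DMSO 1 and 2 and DMSO 3 and 4. For ITGAM it was PRG2 (r = 0.997), for ITGAX CHI3L1 (r = 0.993), for ITGB7 MAPK3 (r = 0.995) and for ITGA5 DNTTIP1 (r = 0.999). PRG2, the major basic protein of eosinophil granules, measured 5759 to 6444 CPM with SY-351, against 1552 to 2998 CPM in DMSO. ITGAL was most like CD46 (r = 0.999), ITGB1 most like BCAP31 (r = 0.999), ITGB2 most like OAZ1 (r = 0.998) and ITGA4 most like SLC36A4 (r = 0.989). The number of genes above an r of 0.99 ran from 0 for ITGA4, 2 for ITGAM and ITGB7 and 5 for ITGAX to 23 for ITGB2, 40 for ITGB1, 43 for ITGA5 and 56 for ITGAL.

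The members also differ in base composition, which the choice of genes did not use. GC content of the spliced transcript was lowest in ITGB1, at 39.5%, and ITGA4, at 44.1%, and ran from 54.2% in ITGAM to 59.4% in ITGB7 in the other 6. Among those 6, ITGB2 stood at 58.6% and ITGA5 at 58.7%. The part of GC content in the differences between the DMSO pairs was not tested.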

How the data were processed

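Whole-number counts were deposited by the authors, made with featureCounts 1.6.2 at strand setting 1 over 1 interval per RefSeq transcript, introns included, per the file headers. The submitters' processing notes give GRCh38 and DESeq2. The way in which a replicate's 2 technical repeats were merged into its column was not stated. The authors' deposited splicing table holds score columns (expected inclusion, its difference, and probability), with MAJIQ and Voila column names per the file headers. Its folder name says that outliers were left out, without saying which. Its difference is control minus SY-351 and was turned round.

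Of 18093 rows, 17871 were named through the RefSeq gene table, 133 through GENCODE and 89 kept their identifier. Of rows that shared a symbol the one with the highest total was kept. The test was edgeR 4.0.16's, run in R 4.3.3 (TMM, filterByExpr, robust glmQLFit, glmQLFTest, two-sided, group as the only term, Benjamini-Hochberg over all genes). The SE is the log2 fold over the square root of F. At these depths 3 counts equal 0.0241 to 0.0693 CPM, which covers counting error only. Ratios used log2(count + 1) and SciPy 1.17.1. Alternatives were DESeq2 1.42.0, limma-voom 3.58.1, other scalings and filters, a 1.5-fold threshold, a replicate block and leaving out libraries.

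The members and lists were chosen with earlier results of these data known. All 8 members were named, then of each list up to 3 genes with the smallest adjusted p past 0.05, the 2 most abundant, and for each member the gene most like it. CERKL, ZNF740, HBA1, HBB, CD79A, MPO, LYZ, CEBPA, CD33, SPI1, CTSG, CD44 and PTK2B were named after their values were seen.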

Additional observations from a re-analysis of the deposited data

Results flagged for a closer look

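A gap test (Dixon's, at its 95% critical value) was run on the 28 sets of 4 values, which are the CPM of 8 integrin genes and the 6 log2 ratios in each group, and chance passes about 5% of such sets. It marked ITGAL in SY-351 replicate 4, at 169 CPM, where replicates 1 to 3 had 186 to 189 CPM. It also marked ITGA5 in DMSO replicate 4, at 103 CPM, where replicates 1 to 3 had 76.6 to 78.6 CPM. These are TMM-scaled values, and scaled to total count alone ITGA5 ran from 51.1 to 124 CPM in DMSO. The gap test was not run on values scaled to total count alone. Without DMSO replicate 4 ITGA5 still fell, and without SY-351 replicate 4 ITGAL still did not pass.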

How the results depend on the processing

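ITGA5 was called lower, and ITGAM and ITGAX higher, in every fit run but the replicate block, where their log2 folds were -2.43, 1.94 and 2.08. The number of integrin genes called higher was 4, and it was 2 with a 1.5-fold threshold, 7 without DMSO 1 and 2 with either TMM or total count scaling (the second chosen after seeing the data), and 2 to 5 on leaving out each library. The number called lower was 1, and 2 against DMSO 1 and 2 alone. With the replicate number as a block, 0 were called higher and 0 lower (edgeR adjusted p = 0.0699 to 0.0754 for these 3). Same-numbered libraries had deviations from their group means correlated at -0.176 to 0.006. In DMSO those deviations hold the split between the DMSO pairs, so this check cannot decide whether the numbers paired the libraries. DESeq2 called 5 higher. ITGAL passed with DESeq2 (DESeq2 adjusted p = 0.0159) and without DMSO 4 (edgeR adjusted p = 0.0451). The log2 fold of ITGB2 turned to -0.042 with DESeq2 and -0.042 with its size factors in edgeR, to -0.059 and -0.024 without DMSO 3 or 4 (from -0.059 to 0.55 on leaving out each library), and to -0.65 against DMSO 1 and 2 alone, where ITGA4 turned to -0.12. Of these turned folds only the -0.65 of ITGB2 passed the test. The cause of the turns was not tested. The median log2 fold over all genes was -0.11 with DESeq2's size factors and -0.45 with total count scaling without DMSO 1 and 2. Of the 5 context lists 3 genes were called higher and 9 lower, with 28 higher and 11 lower without DMSO 1 and 2 (all genes: 21.9% and 26.4%), and 26 higher and 35 lower against DMSO 1 and 2 alone (all genes: 40.8% and 38.4%).

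Without DMSO 1 and 2 the ratio differences were 0.58 (ITGAM over ITGB2), 0.32 (ITGAX over ITGB2), -0.92 (ITGAL over ITGB2), -0.62 (ITGA4 over ITGB1), -3.74 (ITGA5 over ITGB1) and -0.78 (ITGA4 over ITGB7). On leaving out each library they ranged from 1.03 to 1.63, 1.007 to 1.91, 0.19 to 1.65, -1.76 to -1.16, -4.37 to -3.99 and -1.01 to -0.83 in the same order. With so few libraries the exact permutation test cannot pass (adjusted p of 0.0686 or more here).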
